A study of Mus musculus with 5 samples.

Results

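The genes described here build the inhibitory synapse. They are 30 named genes of GABA and glycine signaling, and 28 of them were found by name among the 15093 genes of the deposited table. Kctd12, a partner of the GABA-B receptor, and Glra1, a glycine receptor subunit, were not in the table analysed here and have no value. Ribosome-bound RNA was sequenced from adult Drd2-TRAP mice, in which Cre recombinase driven by Drd2 regulatory sequences switches on a green fluorescent tag on the ribosomal protein L10a, so that RNA under translation can be pulled down from tagged cells (translating ribosome affinity purification, TRAP). Each library pooled bilateral 1 mm punches centered over the central amygdala (CeA) of 3 animals. Of the libraries, 3 came from fear conditioned mice (replicates 2, 3 and 4), trained with tone and foot shock, and 2 from controls that the labels call home cage (replicates 6 and 7). Both groups carried the same transgenes, and brains were taken 2 h after the session. In its results the study has controls that heard the tone but received no shock, and the labels name an extinction session, so the exact control and session are not settled by the sources used here. Any cell in the punch in which Cre had acted could carry the tag, and the sex of the animals is not given in the sources used here.

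GABA is made from glutamate by glutamate decarboxylase and loaded into vesicles by a dedicated transporter. It opens GABA-A receptors, which are chloride channels built from subunits of several families, and it activates GABA-B receptors, which signal through G proteins. Glycine receptors are chloride channels related to GABA-A receptors. The CeA is made up largely of GABAergic neurons that inhibit each other and their targets, and the subunits a neuron uses set how fast, how strongly and where on the cell it is inhibited.

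The libraries held between 19605318 and 27937520 recovered reads on genes, the deepest and the shallowest both being controls (replicates 6 and 7). Fear conditioned replicates 2 to 4 held 21070588, 25022225 and 19988438 reads. Values are those deposited, in counts scaled to an adjusted library size (CPM), and 3 reads, taken as the floor of detection for counting error alone, amount to at most 0.158 CPM. The home cage libraries stood apart from each other. They also had more genes at 0, with 976 in replicate 6 and 2681 in replicate 7. Fear conditioned replicates 2 to 4 had 349, 263 and 159. The cause was not tested, so a value at or near 0 in a home cage library need not mean that the gene was silent. Across the 13560 genes with a mean of at least 1 CPM, Pearson's r of log2(CPM + 1) was between 0.976 and 0.984 for pairs of fear conditioned libraries and 0.746 for the home cage pair, below the 0.79 to 0.894 of pairs across groups, a description across genes that are not independent replicates. Every comparison below therefore rests on 2 controls that differ, and members are also given without each of them. The mean of 2 such libraries is printed with its SD, and each value behind it is shown.

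The label of the cells was checked against their markers. Each list is said to be led by the marker with its highest mean over all libraries. Drd2, the gene whose regulatory sequences drive Cre, had 326, 375 and 555 CPM after fear conditioning, but 128 and 262 in the controls, and Prkcd, a marker of a class of CeA neurons, had 11.5, 11.9 and 11.2 CPM, but 14.2 and 41.1 in the controls. The 16 markers of striatal projection neurons summed to 24183, 25601 and 27281 CPM after fear conditioning and only 9648 and 16247 in the controls, led by Penk, which encodes an opioid peptide precursor, and all 16 had a log2 fold change above 0. The 11 markers of other CeA neurons, led by Sst, summed to 375, 238 and 242 CPM against 385 and 638 (6 of 11 below 0, Tac2 listed at 0 in home cage replicate 7).

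Markers of other cells were mostly lower after fear conditioning by value. The 12 astrocyte markers, led by Slc1a2, the main glutamate transporter of astrocytes, summed to 1128, 922 and 1168 CPM against 2399 and 3018 (9 of 12 below 0). The 10 oligodendrocyte markers summed to 1856, 1284 and 2732 CPM against 2815 and 5384 (9 of 10 below 0). The 10 choroid plexus markers, led by Ttr, summed to 109, 184 and 117 CPM against 2239 and 1930.5 (8 of 9 tested below 0), with Aqp1 at 0 in 3 libraries and Folr1, Kcnj13 and F5 at 0 in fear conditioned replicate 2. Clic6 and Enpp2 made up most of the fear conditioned choroid plexus sums, and Clic6 overlapped between groups (50.9, 77.2 and 56.2 CPM against 51.1 and 64.2). Ttr itself had 0.522, 22.1 and 0.348 CPM after fear conditioning, against 913 and 1319.6. The 10 markers of GABAergic interneurons, led by Npy, summed to 141, 105 and 136 CPM against 336 and 280 (7 of 10 below 0, Nkx2-1 at 0 in home cage replicate 7). The 10 endothelial and mural cell markers summed to 57.7, 17.6 and 47.6 CPM against 112 and 216 (6 of 7 tested below 0). Ly6c1 led them only through home cage replicate 7 (150 CPM), and Rgs5 exceeded it in every other library. Tek and Kcnj8 were at 0 in both controls. The 11 pallial glutamatergic markers summed to 3908, 3822 and 4245 CPM against 2051 and 3507, a sum set mostly by Nrgn, although 7 of 11 were below 0. Except for the 10 microglial markers, led by Csf1r (140.2, 77.1 and 138 CPM against 162 and 132, 6 of 10 below 0), all of these sums separated the groups. Within these lists, many single markers overlapped between groups. Of 16 striatal markers, 10 were higher without overlap and 0 lower. Of 12 astrocyte, 10 oligodendrocyte and 10 interneuron markers, 6, 5 and 2 were lower without overlap and 0 higher. Of 11 markers each, 5 were lower and 2 higher for other CeA neurons, and 5 lower and 3 higher for pallial neurons. Choroid plexus had 6 lower and 0 higher, and endothelial and mural cells 4 lower and 1 higher. The part of these lists in the differences described below was not tested, and in pooled tissue fewer cells of a type and less RNA per cell cannot be told apart.

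Fear conditioned and home cage libraries were compared with limma on log2(CPM + 1), two-sided, with Benjamini-Hochberg adjustment over all 13560 genes. To be called, a gene needed a log2 fold change beyond 0.5 in either direction at an adjusted p under 0.05. None of the 27 members tested was called, and 0% of all genes were. At an unadjusted p under 0.05, 7 members were lower following fear conditioning (Gad2, Gabra3, Gabrb2, Gabrg1, Gabbr2, Glra2 and Slc12a5) and 1 was higher (Gabrd), where over all genes tested 7.32% were lower and 9.49% higher by the same rule. The 7 make up 25.9% of the members tested. Without fear conditioned replicate 2, 3 or 4, 3 members were lower at that threshold in each case, as were 3.46%, 3.47% and 3.14% of all genes. Without home cage replicate 6, 10 members were lower and 6 higher, where 26% of all genes were lower and 38.1% higher. Without replicate 7, 9 members were lower and 2 higher, where 22.4% of all genes were lower and 18% higher. In both cases the lone control is assumed to vary like the fear conditioned libraries. All 3 fear conditioned libraries lay below both home cage libraries for these same 7 members, as for 16.1% of all genes, and above both for Gabrd, Kctd8 and Gphn, as for 20.2% of all genes. The exact permutation test of single members over the 10 divisions of the libraries into 3 and 2 cannot go below p = 0.1, and each of these 10 members reached that value. The median log2 fold change was -0.39 over the members and 0.08 over all genes tested, and 18 of the 27 members (66.7%) were on the lower side, against 46.0% of all genes. The members were chosen with earlier results of these data known, so the list was given no test of its own.

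**Figure D1:**
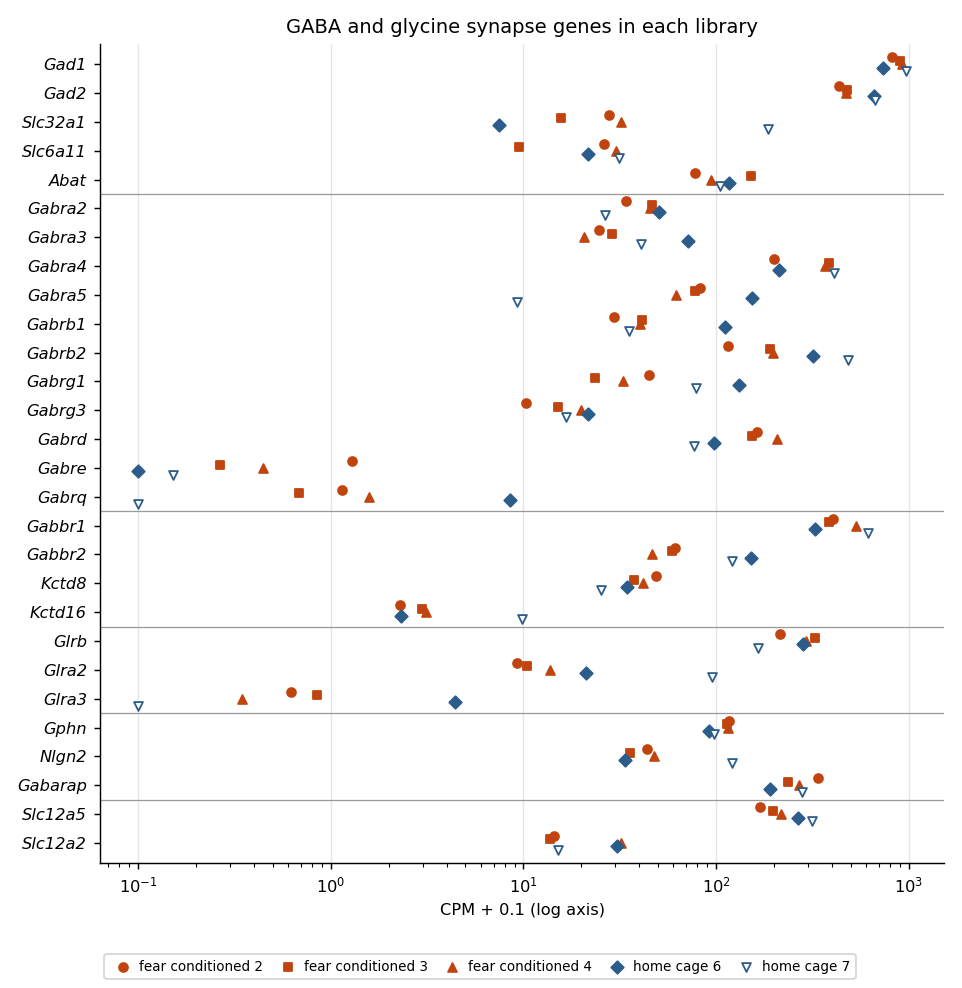
CPM of each member in each library on a log axis, after adding 0.1 so that values of 0 can be drawn, with fear conditioned libraries in red, home cage libraries in blue and lines between roles. Gad2, Gabrb2, Gabrg1, Gabbr2, Gabra3, Glra2 and Slc12a5 show all red points to the left of both blue points, and Slc32a1 and Gabra5 show blue points far apart on either side of the red.

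On the reads recovered from the deposited values, tests built for counts gave different numbers of calls. edgeR's quasi-likelihood test called 0 members. At an unadjusted p under 0.05 it had 7 lower and 1 higher, where 8.08% of all genes were lower and 6.96% higher. DESeq2 called 4 members lower (Gabrb2, Gabrg1, Gabbr2 and Glra2) and 1 higher (Gabrd), where it called 3.81% of all genes lower and 3.69% higher. For the members called, adjusted p values from DESeq2 ran from 0.000937 for Gabbr2 to 0.0221 for Gabrd. DESeq2 takes the same spread for both groups of a gene, and the spreads of these groups differed. The coefficient of variation between libraries beyond counting error, estimated by edgeR, was 1.231 in home cage and 0.238 in fear conditioned libraries. The effect of this on the calls was not tested.

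Among the genes that make, load and clear GABA, Gad2 was the only member whose groups did not overlap. Gad2 (ENSMUSG00000026787) encodes the form of glutamate decarboxylase that is concentrated at nerve terminals. Its values were 435, 481 and 472 CPM with fear conditioning, against 657 and 671 in the controls. The 2 home cage values were close to each other and clearly above all 3 fear conditioned values. The mean was 463 ± 24.1 CPM (SD, n = 3) after fear conditioning and 664 ± 9.56 (SD, n = 2) in home cage, a log2 fold change of -0.52 (standard error 0.20, limma, unadjusted p = 0.0367, adjusted p = 0.271). Its log2 fold change stayed between -0.55 and -0.48 when any library was left out.

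Gad1 (ENSMUSG00000070880), which encodes the other form of the enzyme, found throughout the cell, had 820, 902 and 921 CPM after fear conditioning, against 734 and 968 in the controls. The fear conditioned values lay between the 2 home cage values, and the log2 fold change was 0.06 (standard error 0.23). Within each library the scaling cancels in the ratio of these enzymes. Per kilobase of the deposited gene length, the ratio of Gad1 to Gad2 was 1.45, 1.44 and 1.501 with fear conditioning, against 0.859 and 1.11 in the controls, so Gad1 stood above Gad2 in all fear conditioned libraries and below it in home cage replicate 6. Not divided by length, the ratio in that library was 1.12, so the order there turns on the deposited lengths. On the log2 scale the ratio was 0.55 ± 0.031 (SD, n = 3) and -0.034 ± 0.26 (SD, n = 2).

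Slc32a1 (ENSMUSG00000037771), the vesicular GABA transporter, varied more between the 2 controls than between the groups. It had 27.7, 15.5 and 32.1 CPM after fear conditioning, 7.41 in home cage replicate 6 and 185 in home cage replicate 7. The 25.0-fold gap between the controls took the log2 fold change from -2.90 without replicate 6 to 1.57 without replicate 7, so its direction turned on which control was kept. Slc6a11, a GABA transporter found mainly on astrocytes, ranged from 9.37 to 29.99 CPM after fear conditioning and from 21.4 to 31.4 in home cage. Abat, the mitochondrial enzyme that breaks GABA down, ranged from 77.3 to 151 CPM after fear conditioning and from 104 to 117 in home cage. Both overlapped between groups.

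Of the 10 GABA-A receptor subunits tested, 3 were lower and 1 was higher at an unadjusted p under 0.05, where 7.32% of all genes were lower and 9.49% higher. Gabrd (ENSMUSG00000029054), which encodes the delta subunit of receptors outside the synapse that carry tonic inhibition, was the 1 on the higher side. It had 163, 153 and 207 CPM with fear conditioning, against 97.9 and 76.6 in the controls. Every fear conditioned library exceeded both controls. The mean was 174 ± 28.5 CPM (SD, n = 3) against 87.3 ± 15.1 (SD, n = 2), which is 0.99 as a log2 fold change (standard error 0.25, limma, unadjusted p = 0.00668, adjusted p = 0.20). It stayed between 0.81 and 1.16 with any library left out.

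Gabrg1 (ENSMUSG00000001260), a gamma subunit that takes the place of the common gamma 2 subunit in some receptors, lay on the lower side. It had 45.0, 23.5 and 32.8 CPM after fear conditioning, against 132 and 78.9 in the controls. The lowest home cage value exceeded the highest fear conditioned value. Its log2 fold change of -1.62 (standard error 0.39, limma, unadjusted p = 0.00567, adjusted p = 0.20) ranged from -1.98 to -1.25 with each library left out. The summed astrocyte markers given above separated the groups in the same direction, and their part in this difference was not tested.

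Gabrb2 (ENSMUSG00000007653), a beta subunit, which helps form the GABA binding site, had 115, 191 and 198 CPM after fear conditioning, against 318 and 484 in the controls. All fear conditioned values were lower. The log2 fold change was -1.26 (standard error 0.33, limma, unadjusted p = 0.00838, adjusted p = 0.206). Gabra3 (ENSMUSG00000031343), the alpha 3 subunit, had 24.6, 28.7 and 20.7 CPM after fear conditioning, against 71.4 and 40.4 in the controls, again without overlap. Its log2 fold change was -1.11 (standard error 0.38, limma, unadjusted p = 0.0254, adjusted p = 0.245), -0.70 without home cage replicate 6 and -1.51 without replicate 7.

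By the mean over all 5 libraries, the most abundant of the GABA-A subunits per kilobase was Gabra4 (ENSMUSG00000029211), an alpha subunit that commonly pairs with delta in forebrain neurons. It had 201, 385 and 367 CPM after fear conditioning, against 213 and 407 in the controls. Both groups covered nearly the same range, and the log2 fold change was 0.05 (standard error 0.41). Gabra5, an alpha subunit of receptors outside the synapse in pyramidal neurons, had 82.9, 78.0 and 61.7 CPM after fear conditioning, 154 in home cage replicate 6 and 9.12 in home cage replicate 7. The 16.9-fold gap between the controls enclosed all fear conditioned values, and its log2 fold change of 0.91 (standard error 1.05) turned to -1.05 without home cage replicate 7. Gabrb1 had 29.4, 41.1 and 40.2 CPM against 111 and 35.4, where only home cage replicate 6 stood apart. Gabra2 (26.4 to 50.2 CPM over all libraries) and Gabrg3 (10.2 to 21.7 CPM) overlapped between groups.

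Gabre and Gabrq, which encode the epsilon and theta subunits found in a few brain nuclei, had the lowest means of the subunits. Gabre had 25, 4 and 7 reads after fear conditioning, against 0 and 1 in the controls, and its mean was too low for the comparison. Gabrq had 22, 14 and 30 reads after fear conditioning, 253 in home cage replicate 6 and 0 in home cage replicate 7.

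As shares of the 4 alpha subunits listed here, taken per kilobase, Gabra4 made up 48.7%, 62.7% and 65.4% with fear conditioning, against 35.0% and 80.5% in the controls. Gabra3 made up 5.67%, 4.46% and 3.51% after fear conditioning and 11.2% and 7.62% in home cage, and was the only one of the 4 whose shares did not overlap. Gabra5 ranged from 17.1% to 31.3% after fear conditioning but was 39.5% and 2.81% in the 2 controls.

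**Figure D2:**
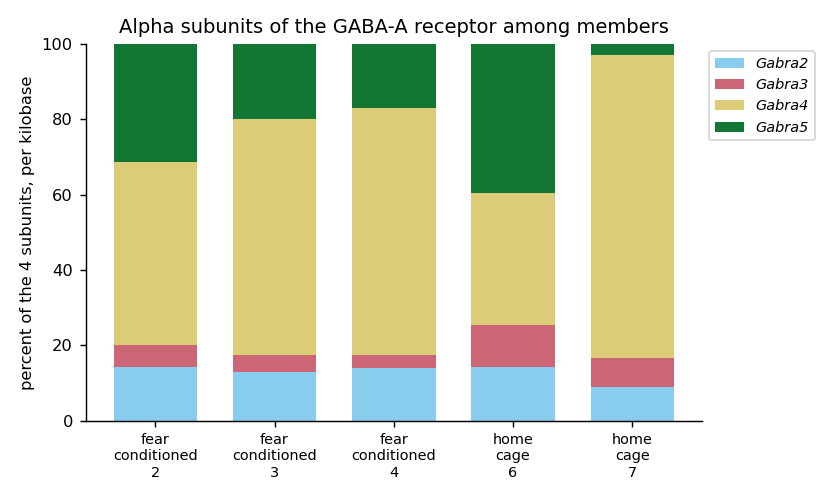
Share of Gabra2, Gabra3, Gabra4 and Gabra5 in their summed level per kilobase, in percent, as stacked bars from 0 for each library. Gabra4 is the largest part in every library except home cage replicate 6, where Gabra5 reaches 39.5%.

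Most of these subunit genes lie in clusters, and the values of neighbors lay on both sides of 0. On chromosome 5, Gabrg1, Gabra2, Gabra4 and Gabrb1 lie next to each other with 1 other protein-coding gene among them (RefSeq order), and their log2 fold changes were -1.62, 0.18, 0.05 and -0.77. On the X chromosome, Gabre, Gabra3 and Gabrq follow each other with 1 other protein-coding gene among them, and of these only Gabra3 stood clear of the detection limit in every library. On chromosome 7, Gabrg3 and Gabra5 are neighbors, with log2 fold changes of -0.36 and 0.91. No difference between neighbors was tested.

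**Figure D3:**
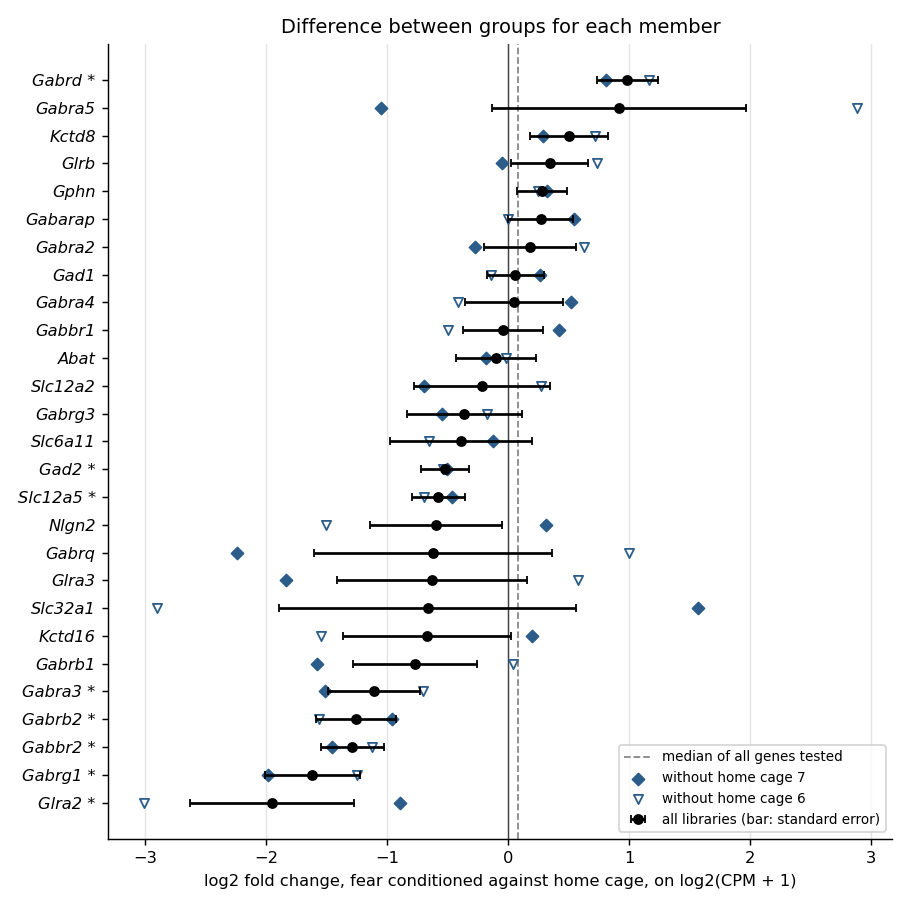
Log2 fold change of each tested member (fear conditioned against home cage, limma on log2(CPM + 1)) as a black point with its standard error, with the value without each home cage library in blue, the median of all genes as a dashed line at 0.08, and a star at an unadjusted p under 0.05. The blue points lie close to the black point for Gabrd, Gad2, Slc12a5 and Gabbr2 and far to either side for Slc32a1 and Gabra5.

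The GABA-B receptor works as a pair of subunits, of which GABBR1 binds GABA and GABBR2 couples to the G protein. Of their genes, Gabbr2 separated the groups and Gabbr1 did not. Gabbr2 (ENSMUSG00000039809) had 61.2, 58.9 and 46.5 CPM with fear conditioning, against 152 and 121 in the controls. Both controls lay well above every fear conditioned library. The mean was 55.5 ± 7.88 CPM (SD, n = 3) against 137 ± 22.1 (SD, n = 2), which is -1.29 as a log2 fold change (standard error 0.26, limma, unadjusted p = 0.00227, adjusted p = 0.197), and this was the smallest unadjusted p among the members. It stayed between -1.45 and -1.12 with any library left out. Gabbr1 (ENSMUSG00000024462), the most abundant member of its role per kilobase, had 403, 383 and 529.6 CPM after fear conditioning, against 324 and 613 in the controls, which overlap (log2 fold change -0.04, standard error 0.33). The ratio of Gabbr1 to Gabbr2 per kilobase was 5.35, 5.29 and 9.25 with fear conditioning, against 1.73 and 4.11 in the controls. Gabbr1 stood above Gabbr2 in every library, and the ratio was higher in all fear conditioned libraries than in either control.

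KCTD proteins bind GABBR2 and shape how fast the receptor signals and fades. Kctd8 (ENSMUSG00000037653) had 48.4, 37.4 and 41.8 CPM after fear conditioning, against 34.4 and 25.3 in the controls. The groups did not overlap, but the log2 fold change of 0.51 (standard error 0.32) had an unadjusted p of 0.162 in limma, with an adjusted p of 0.453. Kctd16 had 2.18, 2.87 and 3.03 CPM after fear conditioning, 2.20 in home cage replicate 6 and 9.70 in home cage replicate 7.

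The sequences before the start sites of Gabbr2 and Gabrg1, the members with the smallest unadjusted p that have an entry in the promoter table, and of Kctd8, which holds the motif described next, differ in composition. Each is the 250 bases upstream of the RefSeq start (build GRCm38.p6), with the core TGACG of the cyclic AMP response element and the E-box CANNTG in capitals, on either strand. The full element TGACGTCA contains the core on both strands.

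Gabbr2, chr4:46991715-46991964, minus strand: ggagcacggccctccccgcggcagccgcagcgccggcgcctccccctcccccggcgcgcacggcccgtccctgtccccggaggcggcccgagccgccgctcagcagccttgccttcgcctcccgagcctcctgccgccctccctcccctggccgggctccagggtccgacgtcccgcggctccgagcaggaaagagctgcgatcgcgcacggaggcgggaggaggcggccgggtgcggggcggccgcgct

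Gabrg1, chr5:70842618-70842867, minus strand: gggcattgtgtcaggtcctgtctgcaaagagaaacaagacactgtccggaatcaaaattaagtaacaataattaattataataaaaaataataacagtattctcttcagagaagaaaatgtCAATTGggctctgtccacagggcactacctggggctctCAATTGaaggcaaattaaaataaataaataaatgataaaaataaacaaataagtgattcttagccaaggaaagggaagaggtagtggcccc

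Kctd8, chr5:69341710-69341959, minus strand: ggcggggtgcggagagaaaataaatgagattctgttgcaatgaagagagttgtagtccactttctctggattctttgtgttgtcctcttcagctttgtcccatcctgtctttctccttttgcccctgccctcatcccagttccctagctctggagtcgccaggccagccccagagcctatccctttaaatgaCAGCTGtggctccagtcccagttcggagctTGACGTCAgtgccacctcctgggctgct

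The Gabbr2 window is 80.8% G and C, more than 99.0% of the 32851 windows in the table, and the Gabrg1 window is 35.6%, more than 5.41% of them. Gabrg1 holds 2 E-boxes, Kctd8 holds 1 E-box and the full element, and Gabbr2 holds neither motif. Of the 25 members with an entry (Abat, Gabrd, Glra1, Kctd16 and Slc12a2 have none), Kctd8 alone held TGACGTCA. These members have 30 windows, and the element occurs in 3.33% of them and in 1.55% of all windows. Gad2, Kctd8 and Kctd12 held TGACG, which occurs in 10% of the member windows and 17.8% of all windows. An E-box was held by 16 members, and occurs in 56.7% of the member windows and 66.2% of all windows. A match describes the letters and is not a site shown to be bound.

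Glycine receptors are built from alpha subunits and the beta subunit, which anchors them at the synapse. Glra2 (ENSMUSG00000018589), the alpha 2 subunit, which is typical of the young brain and also found in striatal neurons, had 9.15, 10.3 and 13.7 CPM after fear conditioning, against 21.0 and 94.7 in the controls. All fear conditioned values were lower, but home cage replicate 7 was 4.50-fold above replicate 6. The log2 fold change was -1.95 (standard error 0.68, limma, unadjusted p = 0.0269, adjusted p = 0.248), -0.89 without home cage replicate 7 and -3.01 without replicate 6. Glrb (ENSMUSG00000028020), the beta subunit, had 214, 327 and 294 CPM after fear conditioning, against 283 and 164 in the controls, which overlap (log2 fold change 0.34, standard error 0.32). Glra3 had 11, 18 and 5 reads after fear conditioning, 129 in home cage replicate 6 and 0 in replicate 7. Per kilobase, Glrb exceeded the summed Glra2 and Glra3 by 19.6-, 26.4- and 18.4-fold in the fear conditioned libraries and by 10.4- and 1.504-fold in the home cage libraries, so message for the beta subunit exceeded that for these alpha subunits in every library and least in home cage replicate 7.

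**Figure D4:**
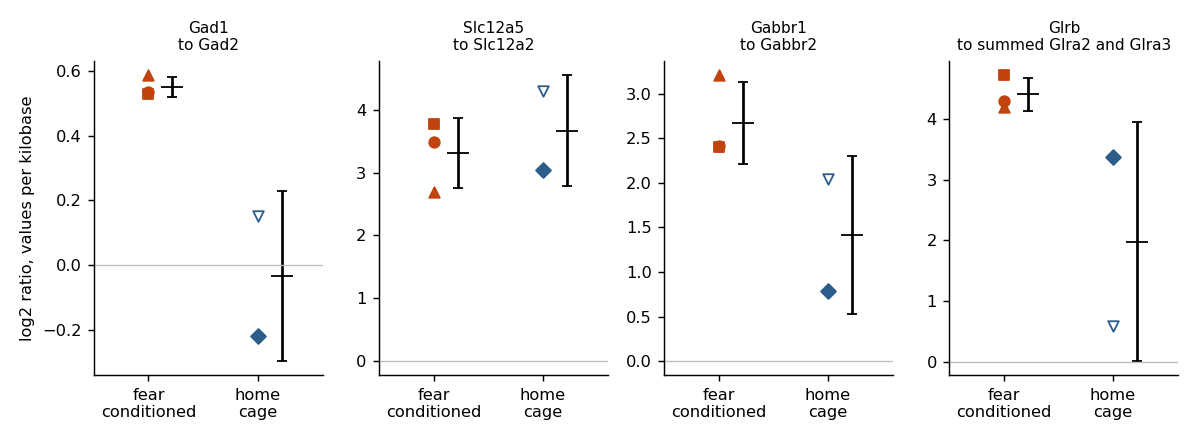
Log2 ratio per kilobase of Gad1 to Gad2, Slc12a5 to Slc12a2, Gabbr1 to Gabbr2 and Glrb to the summed Glra2 and Glra3, with a point for each library (red, fear conditioned; blue, home cage) and bars for mean and SD. The fear conditioned points lie above both home cage points in all panels except that of Slc12a5 to Slc12a2.

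None of the scaffold and trafficking genes reached an unadjusted p under 0.05. Gphn (ENSMUSG00000047454) encodes gephyrin, the protein lattice that holds GABA-A and glycine receptors under the terminal. It had 116, 114 and 116 CPM after fear conditioning, against 92.2 and 97.1 in the controls. The fear conditioned values were nearly equal and all higher. The log2 fold change of 0.28 (standard error 0.21) had an unadjusted p of 0.218 in limma, with an adjusted p of 0.509. Nlgn2, the adhesion protein of inhibitory synapses, had 43.8, 35.5 and 47.8 CPM after fear conditioning, 33.7 in home cage replicate 6 and 121 in home cage replicate 7. Gabarap (ENSMUSG00000018567), a small protein of receptor trafficking and autophagy and the member with the highest mean per kilobase, had 339, 235 and 271 CPM after fear conditioning, against 191 and 279 in the controls, which overlap. Reads of Gabarap could be split with those of its relatives Gabarapl1 and Gabarapl2.

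Chloride transporters decide whether these channels inhibit. Slc12a5 (ENSMUSG00000017740), which encodes KCC2, the transporter that keeps chloride low in mature neurons, had 169.8, 197 and 217 CPM with fear conditioning, against 267 and 313 in the controls. All fear conditioned values were lower. The mean was 195 ± 23.9 CPM (SD, n = 3) against 290.2 ± 32.7 (SD, n = 2), which is -0.58 as a log2 fold change (standard error 0.22, limma, unadjusted p = 0.0373, adjusted p = 0.272) that stayed between -0.69 and -0.46 with each library left out. Slc12a2, which encodes NKCC1, the transporter that brings chloride in and which glia and choroid plexus also use, had 14.3, 13.6 and 31.9 CPM after fear conditioning, against 30.5 and 15.1 in the controls. The ratio of Slc12a5 to Slc12a2 per kilobase was 11.2, 13.7 and 6.43 with fear conditioning, against 8.25 and 19.6 in the controls, so KCC2 message exceeded NKCC1 message in every library and the groups overlapped.

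Per kilobase, the level of the members spread widely within a library. Gabarap, Gad1 and Gad2 stood highest, with means over the 5 libraries of 131, 114 and 92.7 CPM per kilobase, above 96.4%, 95.8% and 94.8% of the genes in the table. Gabra4, Glrb, Gabbr1 and Gabrd followed at 76.4, 70.8, 62.8 and 61.4 CPM per kilobase. Gabrg3, Gabrq, Glra3 and Gabre were lowest, with means of 1.40, 0.420, 0.230 and 0.0741 CPM per kilobase. Each member's range over the 5 libraries overlapped that of the next in this order, although within libraries 2 of the 27 neighboring pairs, Slc6a11 over Slc12a2 and Gabrg3 over Gabrq, kept the same order in all 5.

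The 2 home cage libraries disagreed on many members. Of the 27 members tested, 16 differed more between the home cage libraries than over all fear conditioned libraries, and for 8 of them (Gad1, Slc32a1, Gabra2, Gabra5, Gabrq, Gabbr1, Glra3 and Nlgn2) every fear conditioned value lay between the home cage values. Home cage replicate 7 was more than 1 log2 unit above replicate 6 for Slc32a1, Kctd16, Glra2 and Nlgn2 and as far below it for Gabra5, Gabrb1, Gabrq and Glra3. The median absolute difference between the home cage libraries was 0.78 on the log2 scale over the members and 1.08 over all genes tested. The median range of the fear conditioned libraries was 0.47 over the members and 0.44 over all genes.

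**Figure D5:**
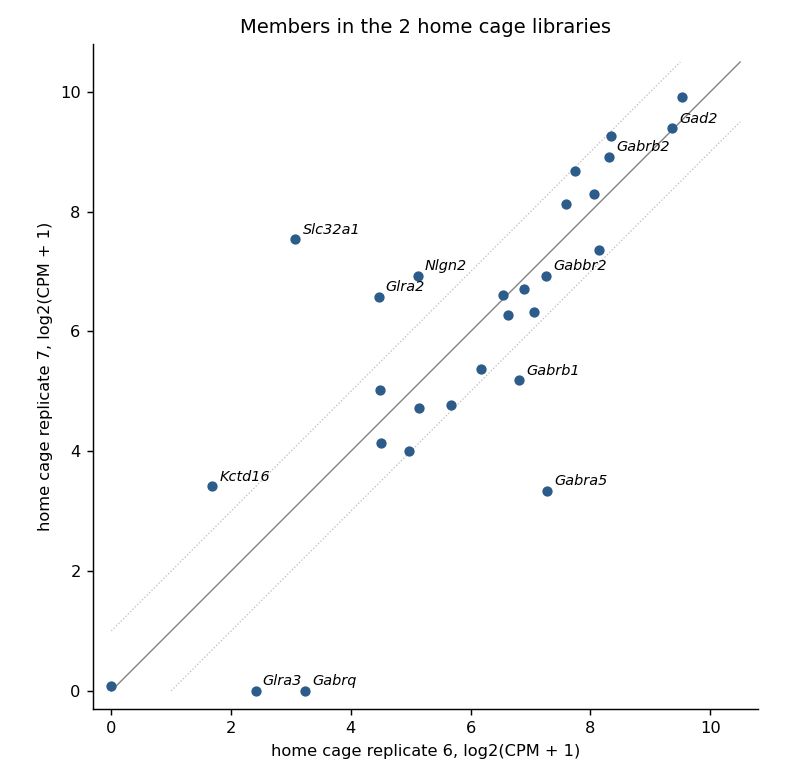
Members in home cage replicate 6 (horizontal axis) and home cage replicate 7 (vertical axis), both as log2(CPM + 1), with a solid line of equal values and dotted lines 1 log2 unit away. Of the named genes, Gad2, Gabrb2 and Gabbr2 lie between the dotted lines and the other 8 outside them.

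Other genes of inhibitory transmission were taken from a list of 41, of which 33 were matched to 1 row of the table and 30 were tested. None was called by limma. At an unadjusted p under 0.05, 4 were lower following fear conditioning and 1 was higher, beside 7.32% and 9.49% of all genes, and the median log2 fold change was -0.37, beside 0.08 over all genes. DESeq2 called 2 of them lower, Iqsec3 (adjusted p = 0.0121) and Shisa7 (adjusted p = 0.025), and 0 higher, where it called 3.81% and 3.69% of all genes. Those on the lower side included Iqsec3 (ENSMUSG00000040797), an exchange factor that binds gephyrin (log2 fold change -1.66, standard error 0.42), Shisa7 (ENSMUSG00000053550), an auxiliary protein of GABA-A receptors (-1.23, standard error 0.32), and Aldh5a1 (ENSMUSG00000035936), which takes up the breakdown of GABA after Abat (-1.01, standard error 0.29). Iqsec3 had 34.9, 19.7 and 28.0 CPM after fear conditioning, against 62.0 and 121 in the controls. Gabarapl1 (ENSMUSG00000030161), a relative of Gabarap, was higher, with 1430.1, 1277 and 1429.8 CPM after fear conditioning, against 668 and 957 in the controls (log2 fold change 0.78, standard error 0.26). Adjusted p values of these 4 genes ran from 0.20 to 0.234 (limma with Benjamini-Hochberg adjustment). Gabarapl1 and Gabarapl2 had the highest values per kilobase on this list, at 654 and 81.3.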

How the data were processed

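Ribosome-bound RNA was measured in 5 libraries of paired-end reads, grouped by the labels. The authors analysed the reads with software the methods call Tuxedo DESeq, and the submitters' processing notes name DESeq and the build mm8. The aligner, the annotation and whether strand was used are not given in the sources used here. The authors deposited a normalized signal per gene and library (CPM of an effective library size) and a gene length. Divided by the lowest nonzero value of the library, 100% of values came out whole (within 0.01), and the quotients were taken as reads. Every gene in the table had a value above 1 in at least 1 library.

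limma 3.58.1 was fitted to log2(CPM + 1) for genes with a mean of at least 1, with a trend, and two-sided p-values were adjusted by the Benjamini-Hochberg method. The added 1 makes fold changes of weakly expressed genes too small. edgeR 4.0.16 and DESeq2 1.42.0 were run on the recovered reads. The fits were tested on simulated data. Nothing says that the pools of a group were processed apart, so p-values measure the spread between these libraries. The other alternatives were a pseudocount of 0.1, no filter, quantile normalization, leaving out each library, a threshold of 0.1 on the adjusted p, and keeping genes at 1 or more in all libraries. The members, the other lists and the tests were chosen with earlier results of these data known. All members in the table are named, with the values of every library for those at an unadjusted p under 0.05 and for the most abundant of each role, and some further values chosen after they were seen. Gene lists were matched by name, identifier or synonym, and Wnk1, with 2 rows, was left out. Promoter sequences and gene order come from RefSeq (GRCm38.p6), and no coordinate of the deposited data was used. Scripts ran in Python 3.11.15 (with matplotlib 3.10.9, scipy 1.17.1, pandas 2.3.3 and numpy 2.4.6) and R 4.3.3. Some items of the lists are not reported here.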

Additional observations from a re-analysis of the deposited data

How the results depend on the processing

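Groups of 3 and 2 libraries limit every comparison, and leaving out a home cage library leaves a lone control that is assumed to vary like the fear conditioned libraries. limma called 0 genes, DESeq2 on recovered reads called 1017, and between 0 and 7956 were called with a library left out. Among members, DESeq2 called 5, and between 0 and 12 were called with a library left out, the highest counts without home cage replicate 6 (12) or 7 (9). At an unadjusted p under 0.05, between 1 and 6 members were higher and between 3 and 10 lower with a library left out. Over all genes at that threshold, 820 were higher when only genes at 1 or more in all libraries were kept, 1495 were lower with DESeq2, and between 483 and 5170 were higher and between 426 and 3531 lower with a library left out.

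The 8 members at an unadjusted p under 0.05 kept their direction under all 11 alternatives, as did Gphn, Kctd8 and Gabrg3, and the other 16 tested members reversed under at least 1. Apart from Gabrg3, the members that kept their direction had groups without overlap. For such members, leaving out a library or changing the pseudocount or filter cannot reverse the direction. Their stability under those alternatives was therefore fixed in advance and adds no support. The log2 fold change was -0.011 with DESeq2 for Gabra4, -0.093 with edgeR and -0.12 with DESeq2 for Gabra5, and 0.22 with a pseudocount of 0.1 for Gabrq. With a library left out it ran from -0.14 to 0.26 for Gad1, -2.90 to 1.57 for Slc32a1, -0.68 to 0.11 for Slc6a11, -0.37 to 0.11 for Abat, -0.27 to 0.63 for Gabra2, -0.42 to 0.52 for Gabra4, -1.05 to 2.88 for Gabra5 and -1.58 to 0.042 for Gabrb1. It ran from -2.24 to 1.00 for Gabrq, -0.50 to 0.42 for Gabbr1, -1.54 to 0.20 for Kctd16, -0.047 to 0.74 for Glrb, -1.83 to 0.58 for Glra3, -1.50 to 0.31 for Nlgn2, -0.0034 to 0.54 for Gabarap and -0.70 to 0.27 for Slc12a2. The median log2 fold change of all genes moved by -0.15 with edgeR and by -0.19 with DESeq2, by 0.15 without home cage replicate 6 and by -0.11 without replicate 7. No paired analysis was possible because the groups share no replicate numbers.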
